A study of Mus musculus with 5 samples.

Results

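Mesenchymal cells of mouse liver were compared between the library labelled VitA-Col1a1- and the VitA-Col1a1+ library, both sorted from mice given diethylnitrosamine and a liquid Western alcohol diet (DEN+WAD). A cell was taken as mesenchymal when it held at least 2000 UMIs (counts of distinct captured RNA molecules), at least 20 UMIs of Dcn, Col3a1 and Colec11 together per 10000, and 0 UMIs of Pecam1, Ptprc and Epcam, which mark endothelial, blood and epithelial cells. The rule kept 3858 of 9870 barcodes of the library labelled Col1a1- (39.1%) and 2062 of 2729 barcodes of its Col1a1+ counterpart (75.6%), together 5920 of the 24007 barcodes of all 5 libraries. Both came from Rosa26mTmG;Col1a1-Cre males on a C57BL/6J background, in which Cre recombinase driven by a Col1a1 promoter turns on a green reporter, and both gates lacked the blue light of stored vitamin A (VitA). Mice received DEN (10 mg/kg) when 2 weeks old, and from week 6 they were kept for 5 months on the diet, of which 3.5% (v/v) was ethanol. The Col1a1 signs in these names therefore describe a reporter that records past promoter activity, not the Col1a1 RNA of a cell. VitA+Col1a1+ DEN+WAD cells (9997 under the same rule), and VitA-Col1a1+ (590) and VitA+Col1a1+ (232) cells of saline-injected, chow-fed males of the same genotype, gave the range of the other libraries. Each group was 1 library with no statement of how many mice it held, so no difference has a replicate check and no test was made. Intervals are 95% and cover counting error only.

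Hepatic stellate cells are the pericytes of the liver sinusoid, where they store vitamin A as retinyl esters. On injury they activate: they lose the vitamin A droplets, take on contractile proteins and lay down fibrillar collagen. Portal fibroblasts lie around the bile ducts and vessels, do not store vitamin A and can make the same collagens. Both kinds express Dcn and Col3a1, which encode a small proteoglycan and a fibrillar collagen of the matrix, while Colec11, a soluble lectin, is mostly a stellate gene.

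The 3858 members labelled Col1a1- held 47728206 UMIs, at a median of 11689 per cell, and the 2062 Col1a1+ members held 38191564, at a median of 17609. The floor of 3 UMIs used for a count of 0 corresponded to 0.0629 and 0.0786 UMIs per 1e+06 (CPM) in the respective sums. Demanding 0 UMIs of the 3 exclusion genes removed 14.3% of marker-positive cells from the library labelled Col1a1- and 4.45% from the other. The libraries shared 5 barcodes, of which 1 was a member in both. Just inside the marker threshold, at 20 to 25 per 10000, lay 1 cell of the library labelled Col1a1-, and just outside, at 15 to 20, lay 8 cells of that library and 1 of the Col1a1+ library. The labels name Cell Ranger 3.1.0 for all libraries, but the file header of the library labelled Col1a1- names 6.1.2 and those of the other 4 name 3.1.0, so the software version and this gate cannot be told apart. Every comparison of the 2 libraries below carries that limit. The 3 rule genes themselves, given as a description, stood at 13577 against 18789 CPM for Dcn, 5010.4 against 2153 for Col3a1 and 2837 against 3041 for Colec11.

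The label Col1a1- did not describe the collagen RNA of these cells. Col1a1 (ENSMUSG00000001506; GRCm38 chromosome 11, 94936224 to 94953042, plus strand), which encodes the main chain of type I collagen, stood at 2062 CPM in the members labelled Col1a1- and at 1128 in the Col1a1+ members. The VitA+Col1a1+ DEN+WAD cells held 307, and the VitA- and VitA+ chow libraries 1935 and 98.1, so the library labelled negative held the highest level of the 5. Its level was 1.83-fold (1.81 to 1.85) that of the Col1a1+ members. After each cell was thinned to 2000 UMIs, 76.6% of the members labelled Col1a1- and 58.3% of Col1a1+ members held at least 1 Col1a1 UMI. Endothelial barcodes served as the background, chosen in each library by at least 10 UMIs of Pecam1, Cdh5, Kdr and Stab2 per 10000, under 20 of the rule's markers and 0 of Ptprc and Epcam. They gave 3.30% in the former library (2240 barcodes, median 8001.5 UMIs) and 3.66% in the latter (437 barcodes, median 13614). Both member shares thus lay far above the level of free RNA, and the library is called by its label only as a name from here on.

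**Figure D1:**
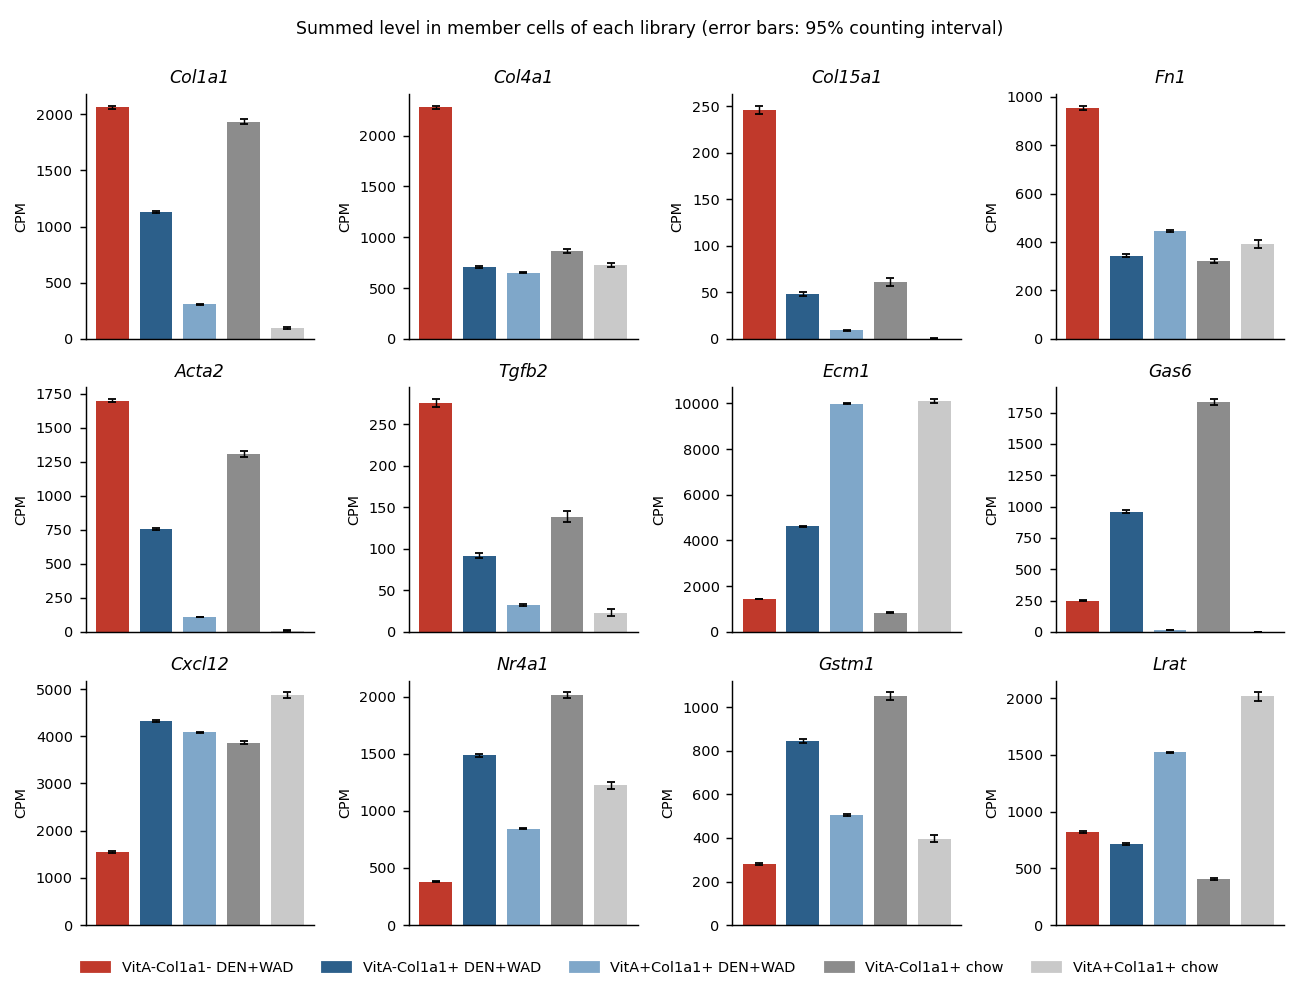
Summed level in CPM (y axis, linear from 0) of 12 genes in the member cells of each of the 5 libraries (bars, coloured by library), with 95% counting intervals. Col4a1, Col15a1, Fn1 and Tgfb2 are highest, and Cxcl12, Nr4a1 and Gstm1 lowest, in the library labelled VitA-Col1a1- DEN+WAD (red).

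A gene was compared genome-wide where the mean of its CPM in the 2 libraries was at least 10, which left 8236 of the 31053 genes. Of these, 256 were at least 2-fold higher in the members labelled Col1a1- (3.11%) and 274 were at least 2-fold lower (3.33%), and the median log2 ratio was 0.06. The library labelled Col1a1- was the highest of the 5 for 27.0% of the genes tested and the lowest for 19.2%. Among the 256 higher genes it was the highest for 219 (85.5%), and among the 274 lower genes it was the lowest for 139 (50.7%). The remaining lower genes were therefore at least as low in another library.

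**Figure D2:**
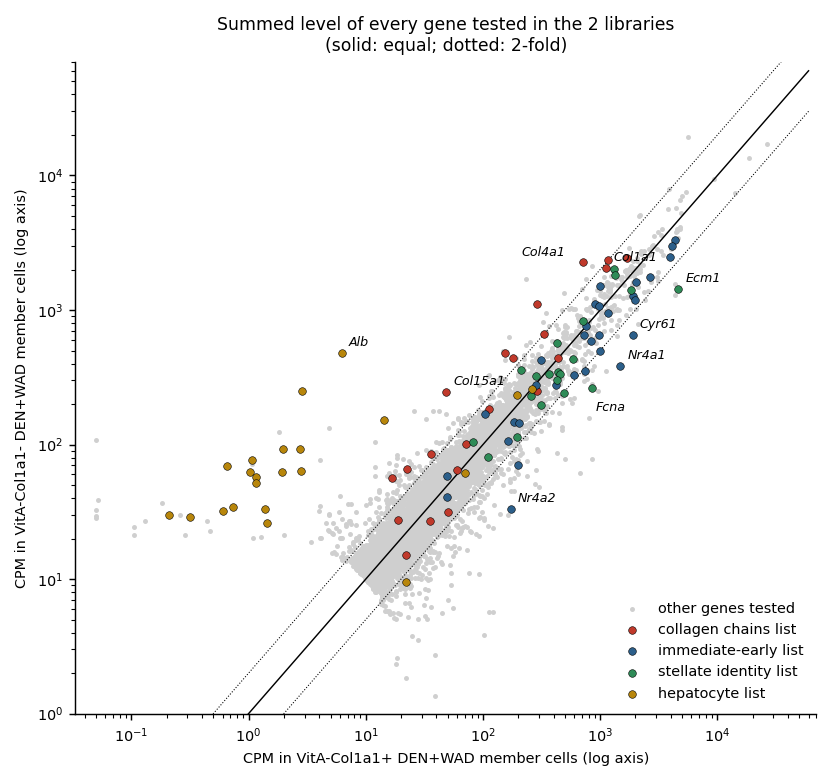
CPM of each gene tested in the Col1a1+ members (x axis) and the members labelled Col1a1- (y axis), both on log axes, with genes of 4 lists in colour, a solid line at equal levels and dotted lines at 2-fold. Genes at 0 in the Col1a1+ members are drawn at 0.05 CPM. Collagen chains lie on or above the upper dotted line more often than below the solid line, and hepatocyte genes form a separate group at upper left.

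Collagen genes stood higher on balance in the members labelled Col1a1-. Of 43 collagen chains besides Col3a1, which the rule used, 21 were tested, 9 were at least 2-fold higher and 0 were 2-fold lower, with a median log2 ratio of 0.87. The library labelled Col1a1- was the highest of the 5 for 12 of the 21. Col4a1, a chain of the network collagen beneath endothelium and epithelium, stood at 2279 CPM against 709 in the Col1a1+ members, 652 and 728 in the VitA+ libraries of DEN+WAD and chow, and 866 in VitA-Col1a1+ chow. The other 4 libraries thus lay close together, and the ratio to the Col1a1+ members was 3.21-fold (3.17 to 3.26). Its partner Col4a2 showed the same order at 1108 against 291 CPM, 3.80-fold (3.73 to 3.88). Col4a1 (chromosome 8, 11198423 to 11312826, minus strand) and Col4a2 (11312805 to 11449287, plus strand) are annotated head to head with overlapping starts.

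Col15a1, a collagen of the zone between basement membrane and fibrils, had the largest ratio among the tested chains. It stood at 246 CPM in the members labelled Col1a1-, 48.5 in the Col1a1+ members, 9.05 in the VitA+ DEN+WAD library, and 60.6 and 0 in the VitA- and VitA+ chow libraries. That made it 5.07-fold higher (4.83 to 5.33) than in the Col1a1+ members and several times the highest of the others. Type V collagen, which nucleates and limits the width of type I fibrils, was higher in all its chains, with Col5a2 at 479 against 155 CPM, Col5a3 at 65.8 against 22.6 (2.90-fold) and Col5a1 at 440.1 against 180.4 (2.44-fold). Col12a1, which coats fibrils, was at 56.1 against 16.6 CPM (3.39-fold), and Col18a1 was 2.37-fold higher. Col6a3 was at 665 against 330.0 CPM (2.01-fold), whereas Col6a1 (440.1 against 435) differed by less than its counting interval and Col6a2 was at 249 against 290.5. Col1a2 was at 2343 against 1174 CPM, just short of 2-fold. Not every network or fibril-coating chain passed 2-fold. Col4a5 was at 27.5 against 18.7 CPM, Col14a1 at 2417 against 1708 and Col16a1 at 64.6 against 60.1, while Col4a4 was lower, at 27.0 against 35.5. The tested chains furthest on the lower side were Col27a1, at 31.7 against 50.1 CPM, and Col6a6, at 15.2 against 21.9.

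Genes that process collagen differed less. Of 20 tested, 2 were at least 2-fold higher and 1 was lower, with a median log2 ratio of 0.49. Loxl2, a lysyl oxidase that cross-links collagen, stood at 300.2 against 136 CPM (2.21-fold) and Adamts14, a procollagen N-proteinase, at 21.5 against 7.36 (2.92-fold). Pcolce2, an enhancer of C-proteinase, was the lower one, at 29.8 against 60.4 CPM, and its relative Pcolce was at 425 against 705.

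Matrix glycoproteins and proteoglycans were divided. Of 41 tested, 10 were at least 2-fold higher and 7 at least 2-fold lower, with a median log2 ratio of -0.01. Fn1, encoding fibronectin, stood at 954 CPM in the members labelled Col1a1-, against 345 in the Col1a1+ members and 321 to 446 in the remaining 3 libraries, which made it 2.77-fold (2.72 to 2.82) the Col1a1+ level. The laminin chain Lama4, a basement membrane component, was at 68.0 against 11.9 CPM (5.71-fold, 5.17 to 6.31). Nid1, which links laminin to type IV collagen, was at 465 against 222 CPM. Also past 2-fold were the large proteoglycan Vcan (27.2 against 7.33), periostin, Postn (551 against 232), tenascin C, Tnc (142 against 65.1), the microfibril gene Fbn1 (320.4 against 139), the hyaluronan receptor Cd44 (102 against 49.5), Ltbp2 and Sparc. For Postn the VitA+Col1a1+ DEN+WAD level, 546 CPM, was close to that of the members labelled Col1a1-.

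On the lower side, the laminin chain Lamc3 stood at 9.01 against 53.2 CPM (5.91-fold lower, 5.32 to 6.57), and the secreted protein gene Spon2 at 29.7 against 164 (5.51-fold). The small leucine-rich proteoglycans fibromodulin, Fmod (56.2 against 184), osteoglycin, Ogn (92.6 against 292), and podocan, Podn, were also lower, as were Efemp1 and Vtn. Among proteases and their inhibitors, 3 of 21 tested were higher and 2 lower, with a median log2 ratio of -0.07. The higher ones were Timp1, an inhibitor of metalloproteinases (157 against 68.3 CPM, 2.29-fold), and the proteases Adamts4 (54.7 against 19.6) and Adam12 (20.1 against 6.21), and the lower ones were Mmp3 (21.4 against 44.4) and Serpinf1 (55.6 against 122). Mmp3 turned to 1.76-fold higher in members with 0 UMIs of 7 genes of other cell types, described below. Serpinf1 turned to a log2 ratio of 0.075 in stellate-leaning cells.

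Contractile genes were higher on balance. Of 15 tested, 5 were at least 2-fold higher and 1 was lower, with a median log2 ratio of 0.72. Acta2, encoding the smooth muscle actin by which activated stellate cells are recognised, stood at 1701 CPM in the members labelled Col1a1- and 756 in the Col1a1+ members. The VitA+ DEN+WAD library was at 110.0, and the VitA- and VitA+ chow libraries at 1309 and 8.58. The ratio was 2.25-fold (2.22 to 2.28), and the VitA- libraries all lay above the VitA+ libraries. Tropomyosins were higher too, with Tpm1 at 1329 against 496 CPM (2.68-fold) and Tpm2 at 296 against 139.7. The smooth muscle myosin gene Myh11 (210.4 against 98.0) and Actg2 (58.1 against 23.6) were past 2-fold, but both were higher still in VitA-Col1a1+ chow, at 459 and 102. Mustn1 was the lower one, at 333 against 729 CPM. Tagln, an actin-binding protein gene, was at 2869 against 1767, under 2-fold.

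Of the TGF-beta, BMP and PDGF genes, 26 were tested, 1 was at least 2-fold higher and 1 lower, with a median log2 ratio of -0.20. The higher one was Tgfb2, a ligand that drives matrix production, at 276 CPM against 92.0 in the Col1a1+ members (a ratio between 2.89 and 3.11) and 23.2 to 139 in the other 3 libraries. The lower one was Bambi, a decoy receptor that restrains TGF-beta signals, at 121 against 275 CPM (2.27-fold lower). Tgfb3 was at 90.9 against 49.3 and the receptor gene Pdgfrb at 462 against 263. Tgfb1, named after its value was seen, was at 83.7 against 88.8.

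Growth factor and secreted signal genes tended the other way, with 1 of 27 at least 2-fold higher and 8 lower, at a median log2 ratio of -0.39. Gas6, a ligand of the TAM receptor kinases, stood at 251 CPM in the members labelled Col1a1- and 960.2 in the Col1a1+ members (3.83-fold lower, 3.75 to 3.91). It was at 1835 in VitA-Col1a1+ chow and at 18.3 and 1.97 in the VitA+ libraries of DEN+WAD and chow, so both VitA-Col1a1+ libraries lay highest. Igfbp4, which binds insulin-like growth factors, was at 353 against 1113 CPM (3.15-fold lower), and Sfrp1, a secreted Wnt antagonist, at 51.3 against 279 (5.44-fold lower, and 1.91-fold in members without RNA of other cell types, described below). Wisp1, a matricellular Wnt target, was the higher one, at 52.5 against 18.7 CPM. Wnt4, Ptn, Vegfd, Igfbp6 and Wisp2 completed the lower ones.

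Genes that mark quiescent stellate cells differed unevenly. Of 20 tested, 3 were at least 2-fold lower and 0 higher, with a median log2 ratio of -0.35. Ecm1, a secreted protein that holds latent TGF-beta in check, stood at 1437 CPM in the members labelled Col1a1-, 4631 in the Col1a1+ members, 9989 and 10101 in the VitA+ libraries of DEN+WAD and chow, and 851 in VitA-Col1a1+ chow. The ratio was 3.22-fold lower (3.19 to 3.25), yet the lowest library was VitA-Col1a1+ chow, which also held the fewest stellate-leaning cells. Angptl6 (264 against 847 CPM) and Tmem56 (241 against 488) were the others, and both had the same order of libraries. Lrat, the enzyme that esterifies retinol for storage, was at 823 against 718 CPM, 1.15-fold higher. Fcna, a ficolin of the complement lectin pathway that followed the same libraries, stood at 158 against 799.7 CPM (5.07-fold lower), with 1941 and 2163 in the VitA+ libraries of DEN+WAD and chow.

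Portal fibroblast genes were lower for 5 of 19 tested and higher for 1, at a median log2 ratio of -0.57. Dpep1, a dipeptidase, stood at 48.6 against 299 CPM (6.16-fold lower, 5.89 to 6.45), Ogn and Sfrp1 as above, Gpx3, a secreted peroxidase, at 218 against 548, and Igfbp6 at 8.97 against 23.2. Cd248, or endosialin, was the higher one, at 77.6 against 20.7 CPM (3.74-fold, 3.47 to 4.05). The other 3 libraries lay between 23.1 and 28.0 for Cd248. Ccl19, a homing chemokine of lymphoid stroma, was at 77.5 against 502 CPM (6.47-fold lower), with 1176 in VitA-Col1a1+ chow.

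To describe the makeup of the members, each cell was assigned by whether its summed UMIs of 20 stellate genes reached those of 20 fibroblast genes. Stellate-leaning cells made up 83.3% of the members labelled Col1a1- (82.0 to 84.4%; 3212 cells) and 75.3% of the Col1a1+ members (73.4 to 77.2%; 1553 cells). It was 99.7% in the VitA+ DEN+WAD library and 30.0% in VitA-Col1a1+ chow, and all 232 cells of VitA+Col1a1+ chow leaned to stellate genes. The classes are ranges of a score, not cell types: 18.6% of the members labelled Col1a1- and 11.3% of the Col1a1+ members lay near the dividing line, with the larger sum under 2 times the smaller. Among fibroblast-leaning members the shares were 46.0% (297 of 646) and 17.3% (88 of 509), so ratios in that class rest partly on such cells. In stellate-leaning members, the median per 10000 UMIs was 125 for stellate and 17.3 for fibroblast genes in the library labelled Col1a1-, and 201 and 19.2 in the Col1a1+ library. In the fibroblast-leaning members it was 47.8 and 104 in the former, and 42.2 and 148 in the latter, so each sum leaned less clearly in the library labelled Col1a1-.

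**Figure D3:**
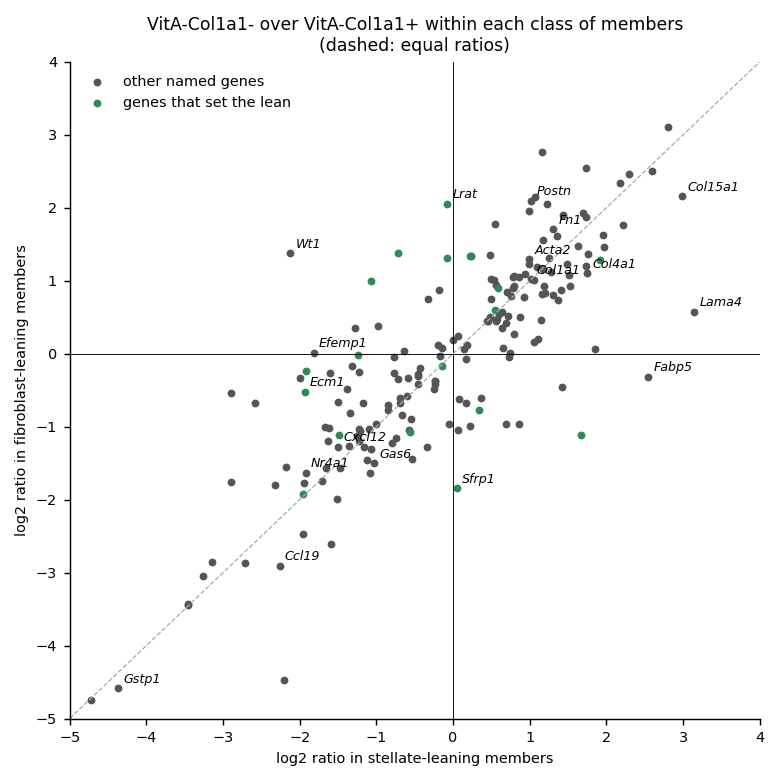
Log2 ratio of the library labelled VitA-Col1a1- to VitA-Col1a1+ DEN+WAD in stellate-leaning members (x axis) and in fibroblast-leaning members (y axis) for the named genes, leaving out lists of other cell types; green points are the genes that define the lean. Col1a1, Col4a1, Acta2 and Fn1 lie above 0 on both axes and Nr4a1, Cxcl12, Gas6 and Gstp1 below 0 on both, while Wt1 lies on opposite sides.

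Within each class on its own, most of the genes past 2-fold over all members stayed past 2-fold. Of the 256 higher genes, 230 were at least 2-fold higher among stellate-leaning cells, 180 among fibroblast-leaning cells and 157 in both. Of the 274 lower genes, the counts were 220, 160 and 127. Col1a1 reached a log2 ratio of 1.02 in either class, above the 0.87 of all members. Its levels were 1756 against 865 CPM in stellate-leaning and 3623 against 1786 in fibroblast-leaning cells. Collagen chains had a median log2 ratio of 1.06 in both classes, and immediate-early genes -0.45 in stellate-leaning and -0.47 in fibroblast-leaning cells. The lists with lower medians depended more on the class. Fibroblast identity moved from -0.57 to -0.07 in stellate-leaning and -0.18 in fibroblast-leaning cells, growth factors from -0.39 to 0.07 and -0.26, stellate identity from -0.35 to -0.49 and 0.25, and complement from -0.42 to -0.20 and -0.21. Both identity lists set the classes, so their shifts are not independent of the assignment. Single genes were followed in the same way. Col4a1 was at 1.75 and 1.11, Fn1 at 1.31 and 1.71, Acta2 at 0.99 and 1.30, and Nr4a1 at -1.92 and -1.63, in the same order of classes. Other genes depended on the class. Lama4 was at a log2 ratio of 3.15 in stellate-leaning and 0.57 in fibroblast-leaning cells, and Fabp5, a fatty acid carrier, at 2.54 and -0.31. Ecm1 was at -1.94 and -0.52 and Efemp1 at -1.82 and 0.02. Sfrp1 was at 0.05 and -1.84, and C3, Igfbp6, Ptn, Serpinf1 and Vegfd also lost their direction among stellate-leaning cells. Ecm1, Sfrp1 and Igfbp6 are on the lists that set the classes, so the same limit holds for them.

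Immediate-early genes, which switch on within minutes of a stimulus, were lower on balance. Of 31 tested, 6 were at least 2-fold lower and 0 higher, with a median log2 ratio of -0.48, and the library labelled Col1a1- was the lowest of the 5 for 11. The NR4A genes, which encode orphan nuclear receptors that respond to such stimuli, stood out. Nr4a1 (chromosome 15, 101254269 to 101274795, plus strand) stood at 381 CPM in the members labelled Col1a1-, 1487 in the Col1a1+ members, 844 and 1224 in the VitA+ libraries of DEN+WAD and chow, and 2016 in VitA-Col1a1+ chow. All 4 other libraries were thus more than 2-fold above it, and the ratio to the Col1a1+ members was 3.91-fold (3.84 to 3.98). Nr4a2 was at 33.1 against 173 CPM (5.24-fold lower, 4.96 to 5.53), with 25.9 and 28.8 in the VitA+ libraries. Nr4a3, named after its values were seen, was at 64.4 against 286 (4.44-fold lower) and was lowest in the library labelled Col1a1-. The others past 2-fold were Cyr61 (647 against 1893 CPM), Maff (70.1 against 198), Klf4 (493 against 1005) and Gadd45b (351 against 741). Fos and Jun, subunits of AP-1, were at 2992 against 4088 and 3297 against 4338, under 2-fold.

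The 250 bases before the start of Nr4a1 and Nr4a2 are shown because these genes share a letter pattern there. Both are taken before the RefSeq start of GRCm38.p6, in the direction of the gene. For Nr4a1 that start lies inside the longer interval given above, so the window is internal to it. Capitals mark TGACG, the core of the cyclic AMP response element, on either strand (CGTCA on the strand shown).
Nr4a1, chr15:101266596-101266845, plus strand: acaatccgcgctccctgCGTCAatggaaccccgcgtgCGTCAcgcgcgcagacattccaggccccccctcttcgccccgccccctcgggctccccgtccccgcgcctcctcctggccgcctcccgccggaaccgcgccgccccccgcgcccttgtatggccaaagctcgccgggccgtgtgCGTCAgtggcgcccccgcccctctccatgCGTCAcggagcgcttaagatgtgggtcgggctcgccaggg
Nr4a2, chr2:57124004-57124253, minus strand: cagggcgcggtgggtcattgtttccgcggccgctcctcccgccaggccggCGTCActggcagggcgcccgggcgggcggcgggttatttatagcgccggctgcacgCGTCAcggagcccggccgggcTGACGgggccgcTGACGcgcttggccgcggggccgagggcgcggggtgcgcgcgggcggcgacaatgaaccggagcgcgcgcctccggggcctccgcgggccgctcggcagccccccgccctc
Each window held 4 sites, and so did that of Nr4a3. Over 27025 promoters of the same length, 17.9% held at least 1 site and 0.152%, or 41 promoters, held 4 or more. The match describes the letters only, and no binding was measured.

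Heat-shock genes did not share this side. Of 18 tested, 2 were at least 2-fold lower and 0 higher, with a median log2 ratio of 0.19. Those lower were Hspa1a, at 785 against 2089 CPM (2.66-fold lower, 2.63 to 2.69), and Hspa1b, at 1011 against 2041, which encode the inducible Hsp70 chaperone and lie as near-identical copies on chromosome 17, so the division of UMIs between them is uncertain. They were highest in the VitA+ libraries, at 3552 to 5480.0 CPM, and lowest in VitA-Col1a1+ chow, at 449.5 and 451. The promoter of Hspa1a is shown with GAANNTTC, the core of the heat-shock element, in capitals.
Hspa1a, chr17:34972157-34972406, minus strand: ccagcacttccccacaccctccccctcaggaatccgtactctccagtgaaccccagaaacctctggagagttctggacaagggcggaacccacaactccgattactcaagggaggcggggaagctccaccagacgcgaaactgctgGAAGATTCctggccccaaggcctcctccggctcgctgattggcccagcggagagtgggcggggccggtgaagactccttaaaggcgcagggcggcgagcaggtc
The pattern, though not the letters of this site, reads the same on both strands. The 1 site starts 104 bases before the gene, as in Hspa1b, whose window has the same base at 247 of 250 positions. Of the 27025 promoters, 6.78% held the pattern. Hsph1, a partner of Hsp70, stood at 321 against 197 CPM and Dnajb1 at 252 against 411, neither past 2-fold.

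**Figure D4:**
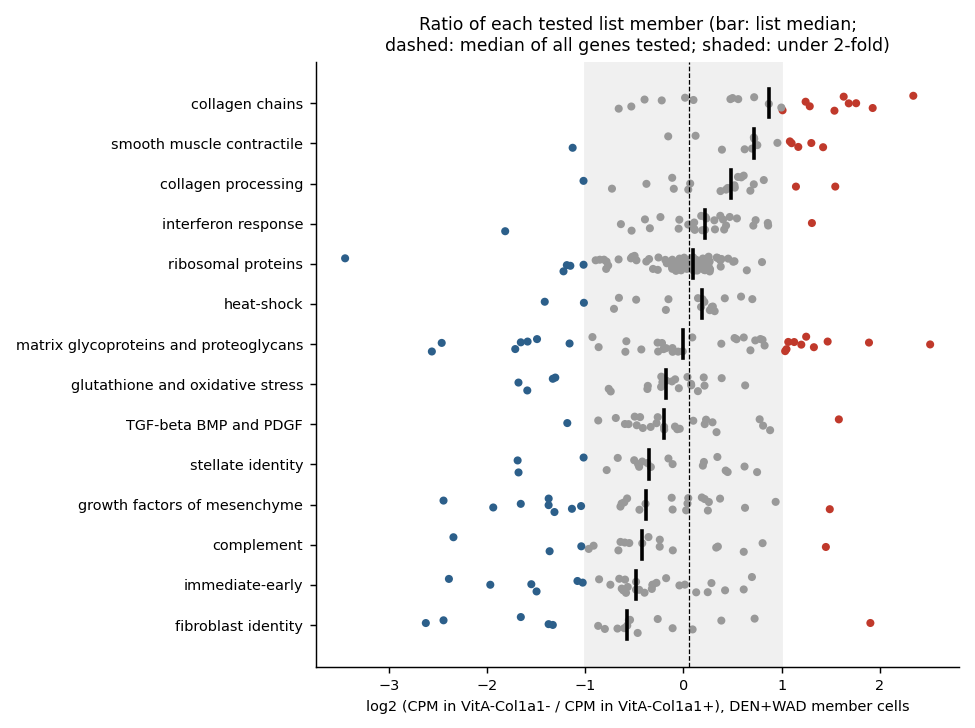
Log2 ratio of each tested gene (points) of 14 lists in the library labelled VitA-Col1a1- over VitA-Col1a1+ DEN+WAD, with the list median (bar), the median of all genes tested (dashed line) and ratios under 2-fold (shaded). Collagen chains and contractile genes have the highest medians, at 0.87 and 0.72, and fibroblast identity and immediate-early genes the lowest, at -0.57 and -0.48.

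Chemokine and inflammation genes were lower for 3 of 22 tested and higher for 1, with a median log2 ratio of -0.11. Cxcl12, the stromal chemokine that retains CXCR4-bearing cells, stood at 1549 CPM in the members labelled Col1a1- and at 3865 to 4876 in all 4 Col1a1+ libraries, including 4326 in the Col1a1+ members of DEN+WAD. It was thus 2.79-fold lower (2.77 to 2.82) than in its counterpart and lower than in any other library. The neutrophil attractant Cxcl1 was at 360.5 against 851 CPM (2.36-fold lower), while Cx3cl1, or fractalkine, was the higher one, at 94.9 against 46.6. Complement genes were lower for 3 of 19, namely Fcna, C1ra (173 against 445) and C3 (124 against 255), and higher for C1qtnf6 alone (60.3 against 22.0), with a median log2 ratio of -0.42.

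Genes of glutathione and oxidative stress were lower for 4 of 23 tested and higher for 0, at a median log2 ratio of -0.17. Gstm1, a glutathione transferase, was at 281 CPM in the members labelled Col1a1-, 846 in the Col1a1+ members and 397 to 1052 in the other libraries (3.01-fold lower, 2.95 to 3.07). Gstt1 was at 127 against 313, Gsta4 at 17.5 against 56.2 and Gpx3 as above. Gstm1 has close paralogs, and Gstm2 was at 145 against 246. Inmt, an indolethylamine methyltransferase, was at 86.4 against 426 CPM (4.93-fold lower, 4.76 to 5.10) and also lowest in the library labelled Col1a1-.

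Targets of YAP and TEAD, which respond to stiffness and spreading of a cell, pointed both ways, with 1 of 16 tested higher and 2 lower and a median log2 ratio of 0.09. Ankrd1 stood at 176 CPM in the members labelled Col1a1-, 25.8 in the Col1a1+ members, 24.8 in VitA-Col1a1+ chow, and 7.09 and 0.893 in the VitA+ libraries of DEN+WAD and chow. It was 6.83-fold higher (6.39 to 7.30). Cyr61, above, and the tissue factor gene F3 (24.2 against 121 CPM, 5.00-fold lower) were on the other side.

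Of 15 retinoid genes tested, 2 were at least 2-fold higher and 0 lower, with a median log2 ratio of 0.05. Aldh1a2, which makes retinoic acid and marks mesothelial and some mesenchymal cells, stood at 20.3 against 1.10 CPM (18.4-fold higher, 13.5 to 25.7), while its relative Aldh1a1 was at 132 against 253. The other was Rbp4, a plasma protein of hepatocytes, at 76.7 against 4.06. Lipid genes were higher for 2 of 20 and lower for 1 (median log2 ratio 0.07): Fabp5 (177 against 41.9 CPM, 4.22-fold), Scd1 (33.2 against 15.6, 2.13-fold, 1.94 to 2.34) and, lower, Pdk4 (12.3 against 27.5). Scd1 and Scd2 encode stearoyl-CoA desaturases, the enzymes the study is about, and Scd2, which the naming rule did not pick, was at 48.8 against 47.1 CPM, a ratio of 1.04 (0.974 to 1.10). Interferon response genes were higher for 1 of 30, Ifi27l2a (2123 against 857 CPM), and lower for 1, Oas1a (6.60 against 23.2), with a median log2 ratio of 0.22. Cell cycle RNA was scarce, with 4 of 15 genes tested. Stmn1 (31.6 against 5.92) and Cdk1 (20.1 against 4.11) were the ones past 2-fold, and the summed level of the list was 287 against 149 CPM. Among 16 p53 and senescence genes tested, 1 was lower, Plk2 (74.9 against 239.7), and the median log2 ratio was 0.16.

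The study links stellate cells to tumour growth through the oxylipin 12-HHTrE, made from prostaglandin intermediates. Cyp1b1, the cytochrome P450 it names for this step, stood at 44.7 CPM in the members labelled Col1a1- and 47.4 in the Col1a1+ members, a difference within the counting interval (1.06-fold lower, 0.995 to 1.13). In stellate-leaning cells the log2 ratio was -0.33 and in fibroblast-leaning cells 0.74, on opposite sides of 0. Ptgs2, the inducible cyclooxygenase, was at 23.1 against 50.1 CPM (2.17-fold lower, 2.01 to 2.34), Ptgs1 was at 2.74 against 3.74, and Tbxas1 and Cyp1a1 were under 1 CPM in both. Of 6 genes on a tumour promoter list, from which the study names Ereg, Vegfa, Gas6 and Mmp2 on these samples, Cd44 was higher, Gas6 was lower, and Ereg (68.8 against 44.5), Vegfa (60.6 against 58.9), Mmp2 (155 against 187) and Mmp23 (116 against 169.8) lay under 2-fold. Their median log2 ratio was -0.11.

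**Figure D5:**
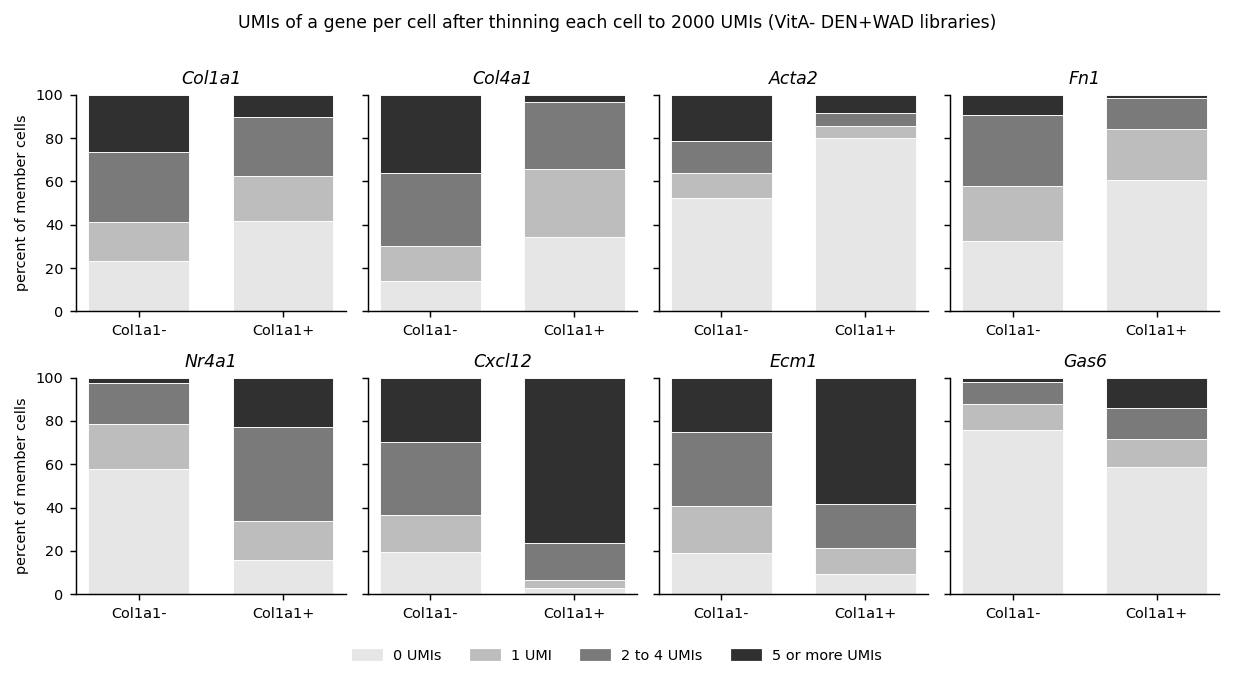
Percent of member cells (y axis) with 0, 1, 2 to 4, or 5 or more UMIs of each of 8 genes, after each cell was thinned to 2000 UMIs, in the library labelled Col1a1- (3858 cells) and the Col1a1+ library (2062 cells) of VitA- DEN+WAD. Cells with 5 or more Col4a1 UMIs made up 36.3% of the former and 3.35% of the latter, and for Cxcl12 the shares were 29.8% and 76.1%.

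For the genes followed per cell, the differences showed in the shares of cells. At 2000 UMIs per cell, 36.3% of the members labelled Col1a1- and 3.35% of Col1a1+ members had 5 or more UMIs of Col4a1. For Col1a1 these shares were 26.3% and 10.4%. Acta2 was uneven in both libraries: 52.3% and 80.0% of cells had none, and 21.4% and 8.49% had 5 or more. Cells without Nr4a1 made up 57.9% of the members labelled Col1a1- and 15.8% of Col1a1+ members, and those without Cxcl12 19.5% and 2.67%. Unthinned, the median Col4a1 level per cell was 15.8 against 5.31 UMIs per 10000, that of Cxcl12 12.6 against 42.7, and that of Ecm1 10.1 against 34.3.

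RNA of other cell types was more abundant in the members labelled Col1a1- and led the list of higher genes. Of 22 hepatocyte genes tested, 18 were at least 2-fold higher and 1 was lower (Ass1, at 9.51 against 22.0 CPM), and the summed list was at 2290.1 against 592 CPM. Alb, encoding albumin, stood at 478 CPM against 6.21 in the Col1a1+ members, 2.77 and 0 in the VitA+ libraries and 1.03 in VitA-Col1a1+ chow. The 10 cells with most Alb held 62.9% of its UMIs. The single cell just inside the marker threshold was at 101614 CPM of Alb over 75137 UMIs. Endothelial barcodes of the same library held 423 CPM of Alb. The erythrocyte gene Hbb-bs was at 108 CPM against 0, at least 1371-fold higher with the 0 set at the floor of 3 UMIs, and 10 cells held 95.7% of it. Spp1, a bile duct gene, was at 132 against 4.90 CPM, with 81.4% in 10 cells, and the 11 cholangiocyte genes summed to 181 against 10.6. The 14 neutrophil, erythrocyte and platelet genes summed to 314 against 77.9 CPM, and the 16 lymphocyte genes to 22.0 against 11.4. Macrophage genes were spread more evenly: C1qb was at 27.0 against 0.131 CPM, its top 10 cells held 7.38%, and 6 of 7 tested genes of that list were higher, with the 21 genes summing to 342 against 64.7 CPM. Macrophage barcodes themselves held 5322 CPM of C1qb. Endothelial genes were higher for 1 of 8 tested, Clec4g (41.2 against 19.5 CPM), the 24 summed to 2318 against 2155, and Kdr (4.06 against 2.96) and Cdh5 (3.12 against 1.41) were near 0. Ecscr, which was not on that list, was at 179 against 37.5 CPM in the members. Endothelial barcodes of these libraries held 200.1 and 175.6 CPM of it. The comparison was repeated with only the members that held 0 UMIs of Alb, Apoa1, Hbb-bs, Spp1, Lyz2, C1qb and Kdr, a choice made after seeing the data. This left 217 members labelled Col1a1- (5.62%) and 1338 Col1a1+ members (64.9%). RNA of other cell types remained: the macrophage genes Cd5l and C1qa were at 28.8 and 19.0 CPM, both against 0. Over all members labelled Col1a1- these genes were at 28.6 and 21.1 CPM, while the hepatocyte gene Ahsg fell from 153 to 51.2. Among the 217 and 1338 members, 212 genes were at least 2-fold higher and 218 lower. Col1a1 stood at 1578 against 951 CPM, Col4a1 at 1892 against 682, Col15a1 at 218 against 40.5, Fn1 at 763 against 343, Tgfb2 at 214 against 74.7 and Ankrd1 at 109 against 19.6, whereas Acta2 at 1101 against 633 did not reach 2-fold. Of 136 named genes that were at least 2-fold apart over all members and had a value here, 104 remained so. The contractile genes Actg2, Myh11, Tpm2 and Mustn1 lost the fold as Acta2 did, as did Nid1, Postn, Sparc, Cd44, Col6a3, C1qtnf6, Cx3cl1, Ifi27l2a, Scd1 and Clec4g on the higher side. On the lower side it was lost by Sfrp1 (109 against 209 CPM), Igfbp4, Wnt4, Serpinf1, C3, Gpx3, Gstt1, Klf4, Gadd45b, Meg3, Pcolce2, Pdk4, Ptgs2 and Tmem56, and Mmp3 turned to 55.6 against 31.6. Among those still lower, Nr4a1 was at 503 against 1450 CPM, Cxcl12 at 2010.0 against 4359, Ecm1 at 1943 against 5413 and Gstm1 at 266 against 799.

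The type IV collagen level was also set beside that of endothelial cells, which make it. Endothelial barcodes held 727 CPM of Col4a1 in the library labelled Col1a1- and 754 in the Col1a1+ library, below the 2279 CPM of the members in the former and near the 709 CPM of those in the latter. For Col15a1 the endothelial levels were 3.26 and 0.316 CPM, and for Ankrd1 2.50 in the library labelled Col1a1-, far under the members' levels. Lama4 was higher in endothelial barcodes, at 142 CPM, than in the members.

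Several of the most extreme ratios were those of genes whose counting is uncertain. Gstp1 (5.70 against 122 CPM), Rpl29 (61.2 against 667) and Nme2 (11.2 against 76.4) have close paralogs or processed copies, and Usp50, Grcc10 and AC160336.1 were equally extreme, at 6.12 against 55.4, 10.9 against 93.0 and 3.83 against 101. In each of these 6 genes the ratio was about the same in both classes of members and the library labelled Col1a1- was the lowest of the 5. Gdpd3 was the reverse, at 124 against 1.81 CPM (68.8-fold higher), with 42.6 and 105 in the VitA- and VitA+ chow libraries. Its gap was not limited to the members. Endothelial barcodes held 119 CPM in the library labelled Col1a1- and 1.58 in the Col1a1+ library, and macrophage barcodes of the former held 184. The loci Gm42418 and AY036118, which overlap on chromosome 17, stood at 19238 against 5652 and 1693 against 231 CPM. Both chow libraries were high for them too, at 19234 and 19776 for the first. Tnnt2, cardiac troponin T, was at 5.66 against 112 CPM and at 378 in VitA-Col1a1+ chow. Of 86 ribosomal protein genes tested 5 were lower and 0 higher. The long nuclear RNAs were divided, with Neat1 at 328 against 112, Meg3 at 45.1 against 174 and Malat1 at 17038 against 26292 CPM, and mitochondrial transcripts summed to 35852 against 28344. None of 3 sex-linked genes tested was past 2-fold, and Y-linked Ddx3y was counted in both libraries, at 109.6 and 137 CPM. Whether the software version or RNA quality contributed to these ratios was not tested.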

How the data were processed

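Sorted liver cells of 5 gates were profiled with 10x Genomics droplets, 1 library for each gate and treatment as the labels name them. The kit version is given as 3.1 in one label field and as 2 in another. Per the labels, the authors counted UMIs against mm10 with Cell Ranger 3.1.0. Per the file headers, the library labelled Col1a1- was written by version 6.1.2. The deposited tables held UMI counts without normalization, as whole numbers, for 31053 genes in every barcode.

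UMIs were summed over members and divided by their total to give CPM. Levels carry exact Poisson intervals, ratios conditional binomial (Clopper-Pearson) intervals and shares Clopper-Pearson intervals, at 95%. A gene at 0 took a floor of 3 UMIs per library for bounds. Genes with a mean of at least 10 CPM were tested in the sense of a fixed fold of 2, with no p-value. On simulated Poisson counts the ratio and its interval recovered the known values. Those counts held no spread between cells, so they check the calculation only. No doublet caller was run: cells with a UMI of an exclusion gene were removed, and the 5% of members with most UMIs were left out as an alternative. Cells were thinned once, with seed 7, to 2000 UMIs, and since every member held at least that many, none was left out.

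Named genes were the 15 highest and 15 lowest by log2((CPM + 5)/(CPM + 5)) among tested genes with at least 50 CPM in either library, leaving out the 6 rule genes and models named Gm or Rik, up to 5 tested genes of largest ratio per list for 33 lists, and all genes of the collagen, 12-HHTrE, tumour promoter and sex-linked lists. The remaining members of a list past the fold are named with their count. Nr4a3, Tgfb1, Lrat, Tagln, Fos, Jun, Scd2, Gm42418, AY036118, Kdr, Cdh5 and Ecscr were named after their values were seen. The members and gene lists were chosen with earlier results of these data known. Genes were located by Ensembl identifier in GENCODE M21 (GRCm38), which held 99.6% of them. Promoters came from RefSeq (GRCm38.p6). Python 3.11.15, numpy 2.4.6, scipy 1.17.1, pandas 2.3.3, matplotlib 3.10.9 and, for TMM factors, edgeR 4.0.16 in R 4.3.3 were used. Alternatives covered scaling, the low-count filter, the weighting of cells, each threshold of the rule, high-UMI cells, the lean of the members and the genes in the total. Some items are not reported here.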

Additional observations from a re-analysis of the deposited data

Results flagged for a closer look

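Wt1, a transcription factor gene of mesothelial and some stellate cells, differed in opposite directions between the classes of members. Its log2 ratio of the library labelled VitA-Col1a1- to VitA-Col1a1+ DEN+WAD was -2.12 in stellate-leaning cells and 1.38 in fibroblast-leaning cells, against 17.5 and 33.1 CPM over all members. The difference between the classes was not tested, since each class came from 1 library per gate. Wt1 was the only one of 8 mesothelial genes on the list abundant enough to be tested, and the summed list was at 17.6 against 33.8 CPM.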

How the results depend on the processing

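The numbers of genes at least 2-fold higher and lower, 256 and 274, became 1996 and 1827 without a filter on low counts (17088 genes) and 83 and 123 with a minimum mean of 50 CPM (3111 genes), as the number of genes tested changed. Under every other alternative they stayed within 1.5 times. The Col1a1 log2 ratio, 0.87, was 0.84 with TMM factors, 0.83 with median-of-ratios size factors, 1.02 as the mean of per-cell CPM, 1.03 without the 5% of cells with most UMIs, 1.02 in either class of members, and 0.73 in members with 0 UMIs of the 7 genes of other cell types, a choice made after seeing the data, and it kept its sign throughout. The stellate-leaning share of members labelled Col1a1- moved from 83.3 to 88.9% without cells near the dividing line, and that of Col1a1+ members moved less than its interval. Of 142 named genes at least 2-fold apart, 132 kept their direction and 86 stayed past 2-fold under each of 11 alternatives that gave them a value. Alb, Apoa1, Hbb-bs, Spp1, Lyz2 and C1qb had none in the members chosen for 0 UMIs of them, where 104 of the other 136 stayed past 2-fold. Among stellate-leaning members the log2 ratio turned for C3 (0.37), Igfbp6 (0.34), Ptn (0.69), Serpinf1 (0.075), Sfrp1 (0.046) and Vegfd (0.066), among fibroblast-leaning members for Ass1 (0.19), Efemp1 (0.016) and Fabp5 (-0.31), and among the 217 and 1338 members free of the 7 genes for Mmp3 (0.82). The cause was not tested, and Igfbp6 and Sfrp1 are among the genes that set the classes. The number of lists with a median above that of all genes, 11 of 25, ran from 10 to 14. With 1 library per gate no alternative stands in for a replicate, and no paired analysis was possible because the groups compared held 1 library each.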
